A study of Bos taurus with 12 samples.

Results

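The interleukin-1 family and its processing enzyme were followed in bovine endometrium, the lining of the uterus. The genes were IL18, IL1A, IL1B, IL1RN, IL1R1, IL1R2 and CASP1, and every probe set of the array whose annotated symbol was exactly one of these names was taken. The 7 genes had 9 probe sets, of 24016 probe sets tested in all, since IL1A and IL1B had a pair of probe sets each, called S1 and S2 here after the ending of their identifiers. The array annotation named 9155 genes in all. The 12 arrays were hybridised with 12 RNA pools from Simmental heifers, in 4 groups of 3 pools, which were receptive endometrium on day 7 of the estrous cycle, non-receptive endometrium on day 7, receptive endometrium on day 3 and non-receptive endometrium on day 3. Receptivity was assigned from whether a pregnancy followed the transfer of embryos produced in vivo, and the samples were taken before that transfer. All pools share the breed and sex, and the labels give no treatment and no ages. The labels do not say how many heifers make up a pool or whether the pools of a group are from separate heifers, nor whether the pools of day 7 and day 3 come from the same heifers, so a p-value reflects how far pools of a group differ, and part of that spread may be technical. Values are log2 signals as deposited, so a difference of 1 unit is a doubling, and levels of different probe sets are not set against each other.

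Interleukin-1 alpha (IL1A) and interleukin-1 beta (IL1B) are inflammatory cytokines that bind the receptor IL1R1 together with its accessory chain IL1RAP and switch on NF-kB and MAP kinases. The antagonist IL1RN occupies the same receptor without signalling, and IL1R2 is a decoy that binds the ligands but cannot signal. IL1B and IL18 are made as precursors that caspase-1 (CASP1), activated in inflammasomes, cuts to the active form. IL18 is stored as precursor in many epithelia and, with IL-12, drives interferon gamma in T and NK cells, and both cytokines are known in the uterus of several mammals, where they have been studied around implantation. In the RefSeq annotation of the cattle assembly ARS-UCD2.0, IL1A, IL1B and IL1RN lie in a cluster with IL37, IL36G, IL36A, IL36B, IL36RN and IL1F10. IL1R2 and IL1R1 are neighbours elsewhere on that chromosome, next to IL1RL2, IL1RL1 and IL18R1. CASP1 adjoins CASP4 on the chromosome that also carries IL18.

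Array medians lay between 6.64 and 6.76, each array listed 257 to 450 probe sets at 0, and pools of a group correlated with each other at 0.957 to 0.968 on average. The 8 markers of luminal and glandular epithelium averaged between 10.6 and 11.2 in every pool and none was at 0. One library stood apart. Receptive day 7 pool 1 was the highest of all 12 pools by more than 2 log2 units in 39 probe sets, against 0 to 8 probe sets in any other pool. Among these were both IL1B probe sets, one of IL1A and that of IL1RN, so most estimates of the members that this pool moves are also given without it. The pool also enters the spread shared by the 4 groups. Without it the non-receptive day intervals of IL1A, IL1B and IL1RN were narrower. The gap between the 3' and 5' probe sets of actin, a sign of RNA integrity, was 0.82 to 3.11 in receptive pools and 0.02 to 0.93 in non-receptive pools. The same gap for GAPDH did not separate the receptivity groups, at 0.37 to 1.04 in receptive pools and 0.62 to 0.82 in non-receptive pools.

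IL18 was the member that changed with the day. On day 7 its signal was 9.10, 9.20 and 9.64 in receptive pools 1 to 3, and 9.60, 9.58 and 9.60 in non-receptive pools. On day 3 it was 7.39, 8.20 and 7.71 in receptive pools, and 8.16, 8.18 and 8.02 in non-receptive pools. All 6 pools of day 7 were above all 6 pools of day 3, in both receptivity groups. IL18 averaged 9.31 ± 0.29 in receptive and 9.59 ± 0.012 in non-receptive endometrium on day 7, against 7.77 ± 0.41 in receptive and 8.12 ± 0.09 in non-receptive endometrium on day 3 (SD, n = 3 each). Averaged over receptivity, IL18 rose by 1.51 log2 units on day 7 (95% interval 1.19 to 1.83, 2.85-fold, limma adjusted p = 0.000926). The change was 1.55 in receptive endometrium (2.92-fold, adjusted p = 0.0153) and 1.47 in non-receptive endometrium (2.78-fold, adjusted p = 0.0125), and these changes differed by 0.07 (95% interval -0.56 to 0.71, adjusted p = 0.999). Without receptive day 7 pool 1 the IL18 change was 1.56 over both groups (adjusted p = 0.00223) and 1.65 in receptive endometrium (0.0308). In order of level the groups ran non-receptive day 7, receptive day 7, non-receptive day 3 and receptive day 3, and neighbours within a day did not differ beyond their spread in the test.

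**Figure D1:**
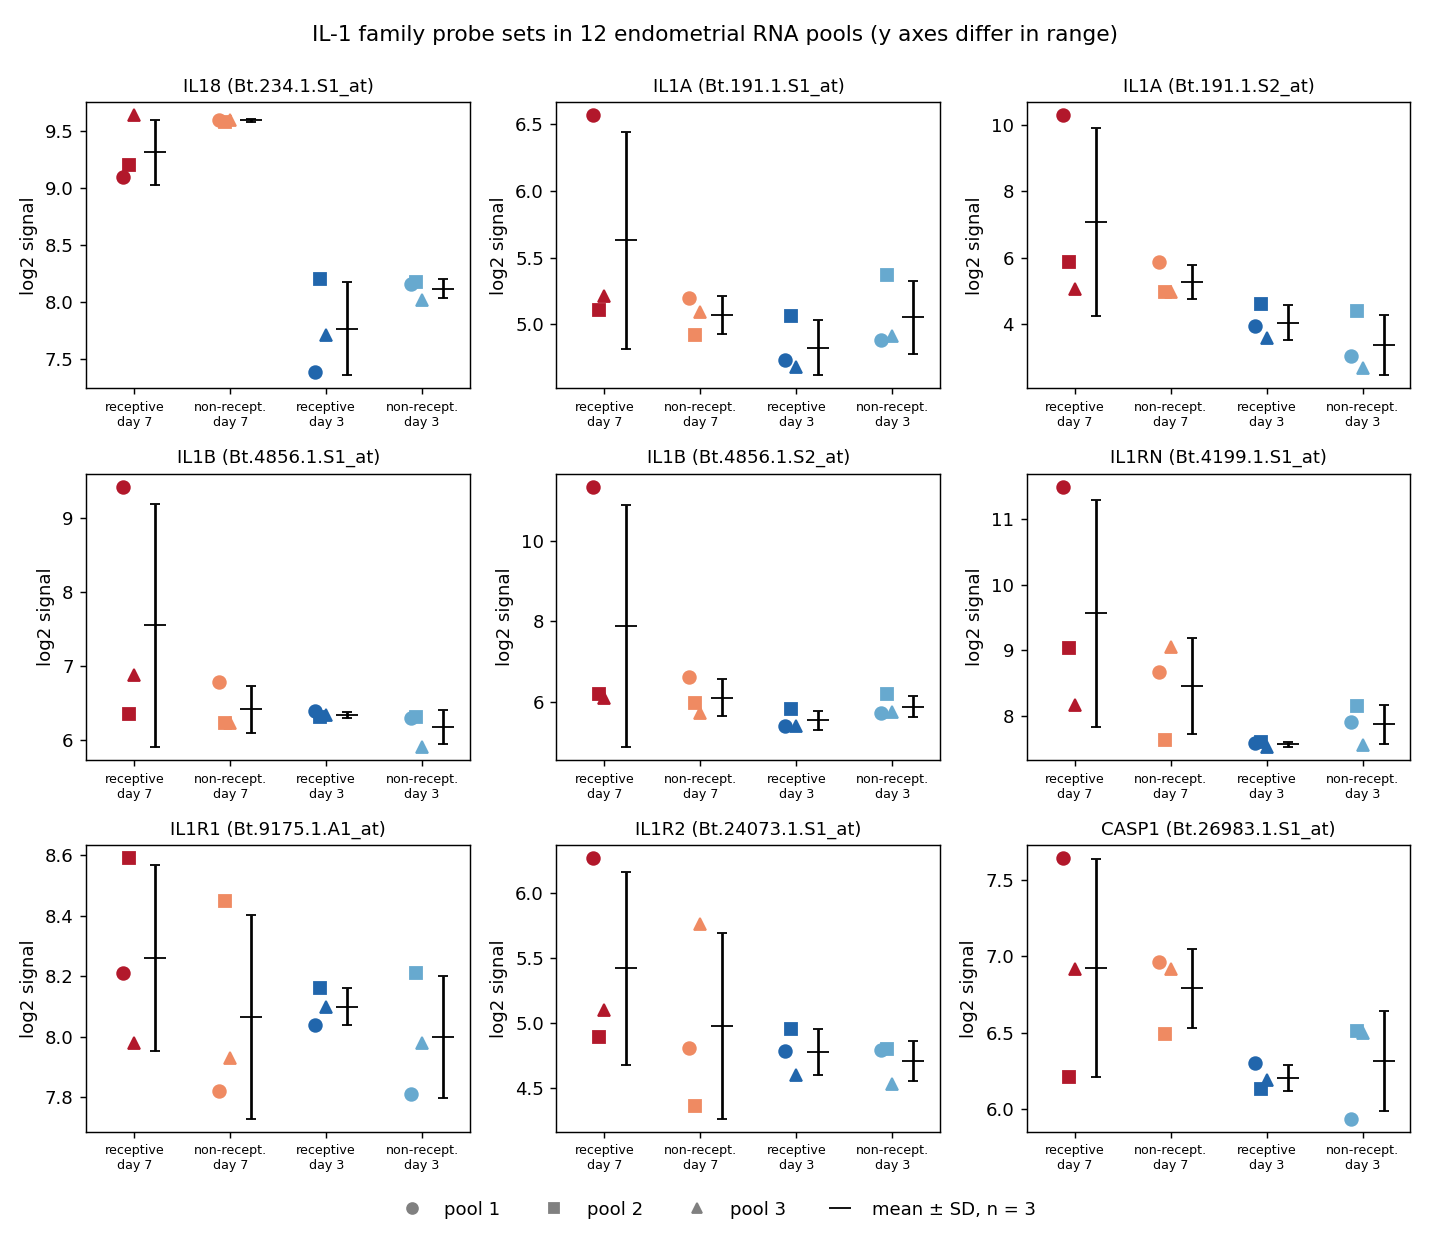
Log2 signal of each of the 9 probe sets (vertical axes, which differ in range) in each of the 12 pools, by group along the horizontal axis, with the mean and SD of the 3 pools of a group beside them. The IL18 values of day 7 all lie above those of day 3, and receptive day 7 pool 1 is the uppermost point for IL1A, IL1B, IL1RN, IL1R2 and CASP1.

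IL18 was the only one of the 9 probe sets called higher on day 7 in the average over receptivity, and none was called lower, while 4.76% of all probe sets were called higher and 9.44% lower. All 9 members had a positive day change, as did 43.4% of all probe sets, and their median change was 0.73 against -0.05 for all probe sets. All 9 were again positive without receptive day 7 pool 1, with a median of 0.41 against -0.04. Unadjusted p-values were under 0.05 for 4 members, IL18, IL1A S2, IL1RN and CASP1, and for 30.8% of all probe sets. IL18 and IL1A S2 were the 2 members with no overlap between the days, which held for 2.55% of all probe sets in this direction. In receptive endometrium 1 of 9 members was called higher and none lower, with 0.595% of all probe sets higher and 1.37% lower, and in non-receptive endometrium again 1 of 9 was called higher and none lower, with 0.82% higher and 1.66% lower over all probe sets. The member was IL18 each time. The pools of the days did not overlap for 5 of 9 members in receptive endometrium (IL18, both IL1A probe sets, IL1B S2 and IL1RN), against 8.72% of all probe sets in this direction, and for 2 of 9 in non-receptive endometrium (IL18 and IL1A S2), against 10.3%. The member called in receptive endometrium was no longer called when the model was fitted to receptive pools only (adjusted p = 0.0843), or without receptive day 3 pool 1 (0.0629) or pool 3 (0.0624). In non-receptive endometrium the call was lost without non-receptive day 3 pool 1 (adjusted p = 0.0631), whereas the IL18 change averaged over receptivity passed in every alternative, between 1.28 and 1.62.

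The ligand IL1A was read by a pair of probe sets that did not behave alike. For S2 the signal on day 7 was 10.28, 5.88 and 5.05 in receptive pools 1 to 3, and 5.86, 4.96 and 4.98 in non-receptive pools. On day 3 it was 3.95, 4.62 and 3.59 in receptive pools, and 3.04, 4.40 and 2.69 in non-receptive pools. All day 7 pools were above all day 3 pools, with 1 pool far above the rest. Apart from that pool the signal was low, 2.69 to 5.88, and below the median of every array (6.64 to 6.76). The day change averaged 2.45 (95% interval 0.69 to 4.22) and did not pass (adjusted p = 0.0663). Without receptive day 7 pool 1 it was smaller, 1.65 (0.83 to 2.48), with a narrower interval, and passed (adjusted p = 0.0251), where 3.93% of all probe sets were called higher, and it also passed without pool 3 of that group (2.96, adjusted p = 0.0353). In non-receptive endometrium alone the change was 1.89. It did not pass with all pools (adjusted p = 0.374) or without receptive day 7 pool 1 (0.0818). The other IL1A probe set, S1, had 6.57, 5.11 and 5.21 in receptive and 5.20, 4.92 and 5.09 in non-receptive pools of day 7, against 4.73, 5.06 and 4.68 in receptive and 4.88, 5.37 and 4.91 in non-receptive pools of day 3. Its days overlapped, its change of 0.41 did not pass (adjusted p = 0.279), and without that pool it was 0.18 (adjusted p = 0.393).

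IL1B was far higher in 1 pool than in the other 11. For S2 the signal on day 7 was 11.34, 6.20 and 6.10 in receptive pools, and 6.62, 5.98 and 5.72 in non-receptive pools. On day 3 it was 5.41, 5.82 and 5.41 in receptive pools, and 5.72, 6.19 and 5.75 in non-receptive pools. Receptive day 7 pool 1 was 4.72 log2 units, or 26.4-fold, above the next pool, while the other 11 pools spanned 1.21. For S1 the values were 9.42, 6.34 and 6.88 in receptive and 6.78, 6.23 and 6.22 in non-receptive pools of day 7, against 6.38, 6.30 and 6.33 in receptive and 6.29, 6.31 and 5.90 in non-receptive pools of day 3. Here the same pool was 5.82-fold above the next, and the other 11 spanned 0.98, so that pool stood apart in both probe sets, by different sizes. The day change of 1.28 for the first and 0.73 for the second did not pass (adjusted p = 0.313 and 0.303). Without receptive day 7 pool 1 the changes were 0.41 and 0.26 (adjusted p = 0.174 and 0.302). In receptive endometrium alone the S2 change without that pool was 0.60 (adjusted p = 0.28), and pools 2 and 3 of day 7 were above all receptive pools of day 3. For S1 the receptive change without that pool was 0.27 (adjusted p = 0.571).

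IL1RN, the antagonist, had a high value in the same pool and a positive day change that did not pass. Its signal on day 7 was 11.50, 9.03 and 8.16 in receptive pools, and 8.67, 7.63 and 9.05 in non-receptive pools. On day 3 it was 7.58, 7.59 and 7.52 in receptive pools, and 7.90, 8.15 and 7.55 in non-receptive pools. The receptive pools of day 3 lay within 0.07 of each other and below every receptive pool of day 7, whereas in non-receptive endometrium pool 2 of day 7 fell inside the range of day 3. Pool 1 of receptive day 7 was 5.46-fold above the next pool. The day change averaged 1.29 (95% interval 0.18 to 2.40, adjusted p = 0.112), was 2.0 in receptive endometrium (adjusted p = 0.152) and 0.58 in non-receptive endometrium (adjusted p = 0.685), and did not pass in any of them. Without that pool it was 0.81 over both groups (adjusted p = 0.0893) and 1.03 in receptive endometrium (adjusted p = 0.225). The non-receptive change stayed at 0.58, with a narrower interval and an adjusted p of 0.393. Without pool 3 of receptive day 7, the lowest of its 3 pools, the averaged change was 1.64 and passed (adjusted p = 0.0433).

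Neither receptor was called. The signalling receptor IL1R1 lay between 7.81 and 8.59 in all 12 pools, with 8.26 ± 0.31 in receptive and 8.07 ± 0.34 in non-receptive endometrium on day 7, against 8.10 ± 0.06 in receptive and 8.0 ± 0.20 in non-receptive endometrium on day 3. Its day change of 0.11 had an interval of -0.20 to 0.43 (adjusted p = 0.634), and it had the smallest range of the 9 probe sets, 0.78. The decoy IL1R2 had 6.27, 4.89 and 5.10 in receptive and 4.81, 4.36 and 5.76 in non-receptive pools of day 7, against 4.60 to 4.95 in receptive and 4.53 to 4.80 in non-receptive pools of day 3. The highest pool was again receptive day 7 pool 1, here 1.42-fold above the next, and the days overlapped (change 0.46, adjusted p = 0.306, and 0.24, adjusted p = 0.528, without that pool).

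CASP1 was 7.64, 6.21 and 6.92 in receptive pools of day 7 and 6.96, 6.49 and 6.92 in non-receptive pools of day 7. On day 3 it was 6.30, 6.13 and 6.19 in receptive pools, and 5.94, 6.51 and 6.50 in non-receptive pools. Most pools of day 7 were above those of day 3, but pool 2 of each receptivity group on day 7 fell within the range of day 3. The day change of 0.59 (95% interval 0.10 to 1.09) did not pass (adjusted p = 0.103), and without receptive day 7 pool 1 it was 0.42 (adjusted p = 0.154), but without pool 2 of that group it was 0.77 and passed (adjusted p = 0.0255).

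**Figure D2:**
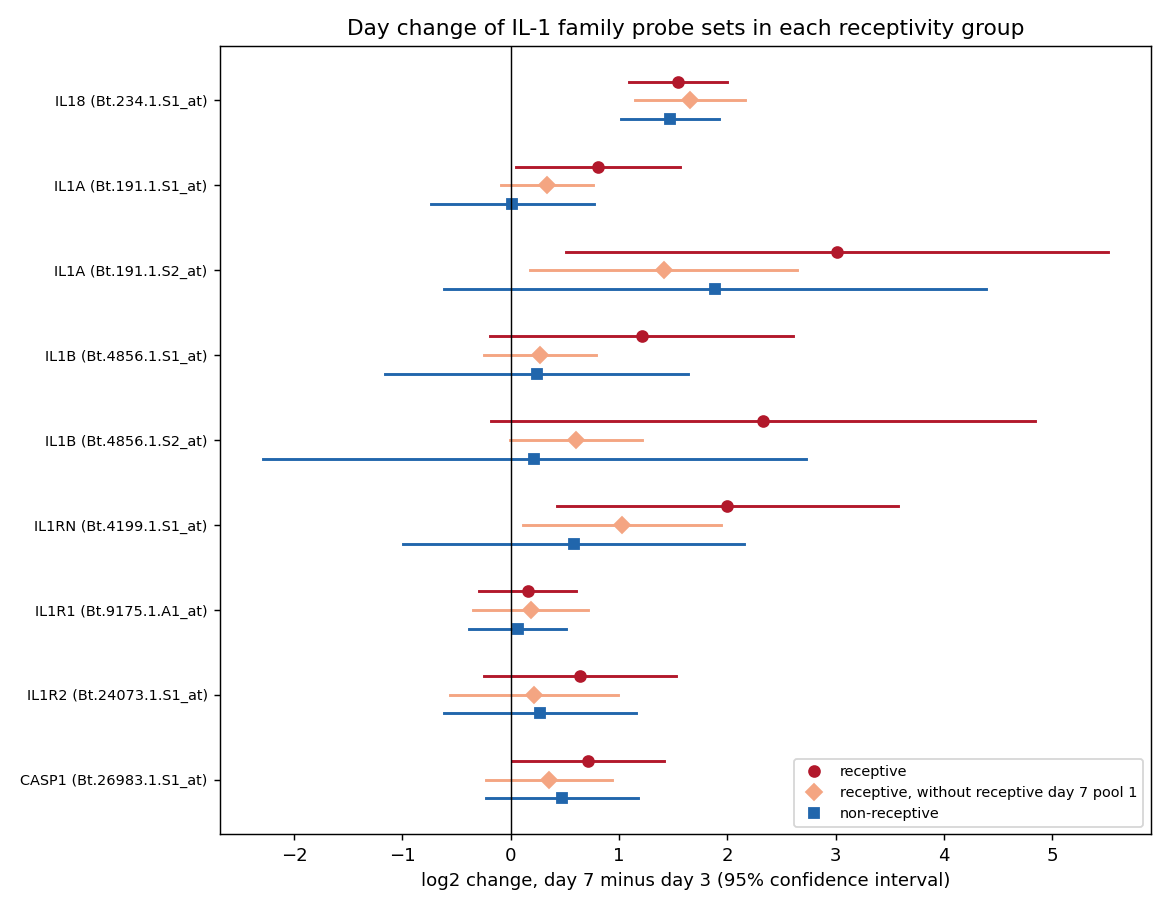
Log2 change of each probe set between the days (horizontal axis, day 7 minus day 3, with 95% intervals) in receptive endometrium, in receptive endometrium without receptive day 7 pool 1, and in non-receptive endometrium. The IL18 intervals lie clear of 0 in all 3 fits, and the intervals of IL1A S2, IL1B and IL1RN shrink when that pool is left out.

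Whether the family differed with receptivity was asked on each day. On day 7 no member was called, and neither was any other of the 24016 probe sets (0% by limma's adjusted p, with 5.81% of all probe sets and 0 members at an unadjusted p under 0.05). On day 3 no member was called either, with 3 probe sets called in all (0.0125%), 5.26% at an unadjusted p under 0.05 and none of the members among them. Averaged over days, 0 members and 1 probe set in all (0.00416%) were called, and 7.38% of all probe sets and 0 members had an unadjusted p under 0.05.

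The larger differences on day 7 were those of IL1A S2, both IL1B probe sets and IL1RN, and they came with 1 pool. IL1A S2 was 1.80 higher in receptive endometrium (95% interval -0.70 to 4.30, adjusted p = 0.828), and 0.20 higher without receptive day 7 pool 1 (adjusted p = 0.974). IL1B S2 was 1.77 higher (-0.74 to 4.28, adjusted p = 0.828), and 0.04 higher without it (adjusted p = 0.989). IL1B S1 was 1.14 higher (-0.26 to 2.54, adjusted p = 0.821), and 0.20 higher without it (adjusted p = 0.938). IL1RN was 1.11 higher (-0.46 to 2.69, adjusted p = 0.828), and 0.15 higher without it (adjusted p = 0.974). None of these values passed with or without the pool, and the median difference of the 9 members on day 7 was 0.56, against -0.02 over all probe sets, and 0.09 without the pool. The same held for the difference between the day changes of the receptivity groups, where 0 members and 0 of all probe sets were called by limma (0%), 3.39% of all probe sets and 0 members had an unadjusted p under 0.05, and the difference was 2.11 for IL1B S2 and 1.42 for IL1RN (adjusted p = 0.999 each). The difference was 0.38 for IL1B S2 (adjusted p = 0.951) and 0.45 for IL1RN (adjusted p = 0.952) without receptive day 7 pool 1. For IL1A S2 it was 1.13 (adjusted p = 0.999) with all pools and turned to -0.48 (0.964) without that pool. For IL1B S1 it was 0.97 (0.999) with all pools and 0.03 (0.991) without that pool.

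IL18 differed the other way. It was 0.28 lower on the log2 scale in receptive endometrium on day 7 (change -0.28, 95% interval -0.73 to 0.17, adjusted p = 0.842, and -0.17, adjusted p = 0.945, without receptive day 7 pool 1) and lower on day 3 (-0.35, -0.80 to 0.10, adjusted p = 0.936), and averaged over days the difference was -0.32 (unadjusted p = 0.051, adjusted p = 0.672). The pools of the receptivity groups overlapped on both days. The lowest IL18 value of all, 7.39 in receptive day 3 pool 1, was in the array with the widest actin gap, 3.11. The GAPDH gap of that array was 0.74, within the range of the non-receptive pools. With the actin gap as a covariate the difference was -0.04 on day 7 and changed sign to 0.15 on day 3 and 0.05 averaged over days. The actin gap was 0.82 to 3.11 in receptive and 0.02 to 0.93 in non-receptive pools, so this fit cannot tell the gap and receptivity apart. The day change of IL18 was 1.28 with the same covariate and passed (adjusted p = 0.00256).

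The rest of the pathway was read from lists, with the probe set of highest mean signal for each gene. Counted in this way, 6.76% of all 9155 genes were called higher on day 7 and 10.3% lower in the average over receptivity. Of the receptor chains and decoys, 3 of 8 listed genes were measured, and the accessory chain IL1RAP (change 0.23), the IL-18 receptor chain IL18R1 (-0.65) and the inhibitory receptor SIGIRR (-0.17) did not pass. Of the other IL-1 family ligands, IL33 was measured, 1 of 7, and had a change of -0.48 (adjusted p = 0.0708). Of 20 measured genes of IL-1 receptor signalling, 0 were higher and 1 was lower, JUN, a subunit of the transcription factor AP-1, by -0.90 (adjusted p = 0.00266). TAB1, an activator of the kinase TAK1, was called higher too without receptive day 7 pool 1 (0.46, adjusted p = 0.0203). The adaptor MYD88 (0.39, adjusted p = 0.0813) and NFKB1 (0.34, adjusted p = 0.107) did not pass, and the list's median change of 0.02 was near that of all genes, -0.02.

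Of 5 measured inflammasome genes, 2 rose and 0 fell on day 7, with a list median of 0.36, while 6.76% of all genes rose and 10.3% fell. PYCARD, the adaptor ASC that recruits caspase-1, was 8.02, 9.15 and 8.98 in receptive pools 1 to 3 of day 7 and 8.77 to 9.37 in non-receptive pools of day 7, against 6.68 to 7.87 in receptive and 7.38 to 7.92 in non-receptive pools of day 3. Its change was 1.42 (adjusted p = 0.00774), the days did not overlap, and as for IL18 pool 1 of receptive day 7 was the lowest of day 7. CASP4, an inflammatory caspase that senses lipopolysaccharide inside cells, rose by 0.48 (adjusted p = 0.0367). GSDMD, whose cleaved form makes the pore through which IL1B leaves the cell, was at -0.13, and P2RX7, the ATP-gated channel upstream of the inflammasome, at 0.36, and neither passed.

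Of 19 measured genes that IL-1 induces in many cell types, 6 rose and 0 fell on day 7, while 6.76% of all genes rose and 10.3% fell. The list median was 1.11 against -0.02 over all genes, and 0.87 without receptive day 7 pool 1. The neutrophil chemokine CXCL8 was 12.09, 8.76 and 8.01 in receptive and 9.54, 7.86 and 8.13 in non-receptive pools of day 7, against 5.26 to 6.13 in receptive and 5.49 to 6.68 in non-receptive pools of day 3 (change 3.04, adjusted p = 0.0155). The monocyte chemokine CCL2 had 10.65, 10.92 and 8.71 in receptive and 9.91, 7.68 and 9.88 in non-receptive pools of day 7, against 5.73 to 6.07 in all pools of day 3 (change 3.73, adjusted p = 0.00241). Both chemokines were higher in all 6 pools of day 7. The collagenase MMP13 rose by 3.87 (adjusted p = 0.0109), the granulocyte growth factor CSF3 by 1.38 (0.0209), CXCL2 by 1.1 (0.00537) and the hyaluronan-binding protein TNFAIP6 by 1.11 (0.0456). IL6 (0.32), CCL20 (-0.07) and ICAM1 (0.34) did not pass. Without receptive day 7 pool 1 the count was again 6, with the mitochondrial superoxide dismutase SOD2 (0.45, adjusted p = 0.0456) in place of TNFAIP6 (0.87, adjusted p = 0.0682). In that fit 3.93% of all probe sets were called higher, against 4.76% of all probe sets with all pools. The share over genes was not counted in that fit.

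Of 7 measured genes of the IL-18 and interferon gamma axis, 0 rose and 3 fell on day 7, with a list median of -0.43. Among all genes 6.76% rose and 10.3% fell. The chemokine CXCL10, an interferon target, was 7.95, 6.50 and 6.66 in receptive and 6.41, 6.30 and 6.71 in non-receptive pools of day 7, against 7.90 to 8.10 in receptive and 7.53 to 8.32 in non-receptive pools of day 3. In 5 of the 6 pools of day 7 it was below every pool of day 3, and receptive day 7 pool 1 was the exception (change -1.18, adjusted p = 0.0143). The cytotoxic granule protease GZMB changed by -1.48 (adjusted p = 0.0174) and the IL-12 subunit IL12A by -1.17 (0.0347), with a low signal of 1.43 to 4.91. The other IL-12 subunit, IL12B (1.145, adjusted p = 0.224), and IL12RB2 (0.25, 0.424) had positive changes that did not pass. IL12B was at 0 in receptive day 3 pools 1 and 2 and in non-receptive day 7 pool 1, and at most 3.55 elsewhere. IFNG itself had a change of -0.19 (adjusted p = 0.75). Without receptive day 7 pool 1, CXCL10 and GZMB passed and IL12A did not (adjusted p = 0.0706). No gene of these lists was called in a comparison of receptivity groups or in the difference between the day changes. In receptive endometrium alone 2 of the 19 IL-1-induced genes were called higher, against 0.874% of all genes, and in non-receptive endometrium 1 of 19, against 1.07%.

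**Figure D3:**
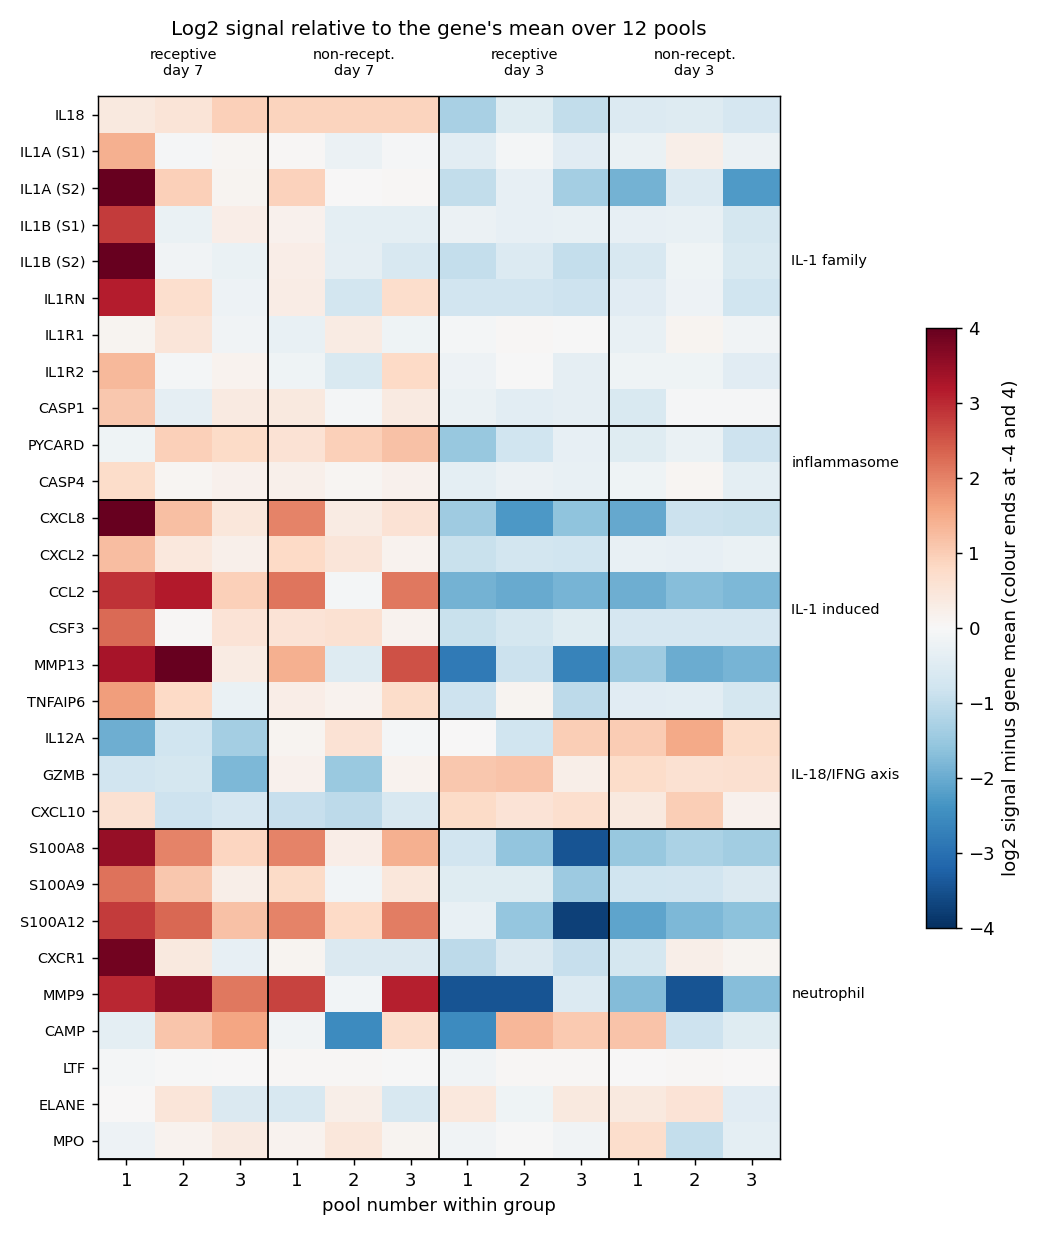
Colour gives the log2 signal after subtraction of each row's mean over 12 pools, for the 9 probe sets, for the pathway genes called in the average over receptivity and for neutrophil markers (rows), in the 12 pools (columns, by group). IL18 and PYCARD are above their mean in most day 7 pools, while IL1A S2, IL1B, IL1RN, CXCL8 and CXCR1 are deepest in receptive day 7 pool 1.

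Neutrophils and macrophages are main sources of IL1B and IL1RN, and markers of both were read. Beside the counts below, 6.76% of all genes were called higher on day 7 and 10.3% lower. Without receptive day 7 pool 1, 3.93% of all probe sets were called higher and 1740 of 24016 lower, against 4.76% and 9.44% of probe sets with all pools. The share over genes was not counted without that pool. Of 9 measured neutrophil markers, 4 rose and 0 fell on day 7, S100A8 (change 3.33, adjusted p = 0.00591), S100A9 (1.53, 0.0141), S100A12 (3.70, 0.0039) and the gelatinase MMP9 (4.79, 0.00426), which was at 0 in 3 pools of day 3. The list's median change was 0.96, and 0.40 without receptive day 7 pool 1, where the same 4 were called. Its mean level was 7.27 to 8.29 in receptive and 6.50 to 7.44 in non-receptive pools of day 7, against 5.69 to 5.95 in receptive and 5.75 to 6.15 in non-receptive pools of day 3. The granule proteins ELANE (-0.37) and MPO (0.31) did not pass, and neither did CAMP (0.11), which was at 0 in 1 pool of each day. The receptor CXCR1 was 9.46 in receptive day 7 pool 1 and at most 5.99 elsewhere. Of 8 measured monocyte and macrophage markers 1 rose and 0 fell, CD68 (2.17, adjusted p = 0.0103). Of the 8 changes 3 were positive, with CD14 (0.93, adjusted p = 0.147) among them. The complement genes C1QA (-1.02, adjusted p = 0.0907) and C1QB (-0.82, 0.079) and the receptor CSF1R (-0.53, 0.233) went the other way and did not pass. The list's median change was -0.03, and its mean level overlapped between all groups, from 6.35 to 7.82. Of 10 measured T and NK cell markers 0 rose and 4 fell, GNLY (-2.07), GZMB (-1.48), PRF1 (-0.68) and ZAP70 (-0.58), and GZMB is also in the interferon gamma list. The count was again 4 without receptive day 7 pool 1, with CD8A (-0.58, adjusted p = 0.0441) in place of ZAP70 (adjusted p = 0.06). Of 2 measured B cell markers 0 rose and 1 fell, MS4A1 (-0.60, adjusted p = 0.0116). S100A8, S100A9 and S100A12 are also made by inflamed epithelium, and fewer cells of a type and less RNA per cell cannot be told apart in such pools. The part of leukocytes in the day change of the family was not tested.

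Keratins of squamous epithelium also differed between pools. Of 5 measured, 4 rose and 0 fell on day 7, KRT5 (3.42, adjusted p = 0.00582), KRT17 (2.37, 0.00224), KRT15 (2.22, 0.00977) and KRT14 (0.74, 0.0158). The share over all genes was 6.76% higher and 10.3% lower. KRT5 was 6.15, 10.06 and 8.50 in receptive pools 1 to 3 and 9.76, 10.09 and 10.28 in non-receptive pools of day 7, against 4.89 to 5.64 in receptive and 5.65 to 7.00 in non-receptive pools of day 3. Receptive day 7 pool 1, highest for IL1B and IL1RN, was thus within the range of day 3 for KRT5, and also for KRT15 (7.00, against 6.96 to 7.57 on day 3). It was above day 3 for KRT17 (7.96, against 4.36 to 5.96) and slightly for KRT14 (5.87, against 5.23 to 5.78). The part of squamous epithelium in the values of that pool was not tested. Luminal and glandular epithelial markers were not called in either direction (0 of 8 by limma's adjusted p), with a median change of 0.15.

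Markers of stroma, vessels and red blood cells were read as well, where 6.76% of all genes were called higher on day 7 and 10.3% lower. Of 8 measured stromal fibroblast markers 0 rose and 1 fell on day 7, the collagen gene COL3A1 (-1.73, adjusted p = 0.0297), with a list median of -0.95. The matrix proteoglycans LUM (-2.25, adjusted p = 0.0607) and DCN (-1.71, 0.125) did not pass. The list's mean level was 7.61 to 8.64 in receptive and 7.79 to 8.89 in non-receptive pools of day 7, against 9.21 to 9.29 in receptive and 7.89 to 10.3 in non-receptive pools of day 3. Of 6 measured endothelial markers 0 rose and 3 fell, the adhesion protein CDH5 (-0.79, adjusted p = 0.0347), the angiopoietin receptor TEK (-1.41, 0.0328) and the sialomucin EMCN (-1.70, 0.0148), with a list median of -0.65. Their mean level was 5.18 to 5.73 in receptive and 4.96 to 5.70 in non-receptive pools of day 7, against 6.06 to 6.29 in receptive and 5.51 to 6.26 in non-receptive pools of day 3. Of 3 measured red blood cell genes 1 rose, the globin HBB (0.50, adjusted p = 0.0277), and 1 fell, the haem synthesis enzyme ALAS2 (-0.41, 0.029). When receptive day 7 pool 1 was left out, COL3A1 (adjusted p = 0.0617), CDH5 (0.0672) and ALAS2 (0.0538) were not called, and the endothelial marker PECAM1 was called lower (-0.61, 0.0358). The part of such differences in cell makeup in the day change of IL18 and the other members was not tested.

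Profiles over the 12 pools were compared with those of 8907 genes by the root mean square difference after centring each gene on its own mean, as a description. The genes nearest to IL18 were SLC6A14, an amino acid transporter (0.24 log2 units), BCL2L14 (0.28), the complement receptor C5AR2 (0.28), the vesicle GTPase RAB26 (0.29) and the retinol dehydrogenase RDH10 (0.30). Each of these was above its mean in the day 7 pools and below it in the day 3 pools, with RDH10 in receptive day 7 pool 1 as an exception. As for IL18, the lowest pool was receptive day 3 pool 1 for 4 of the 5 (SLC6A14, BCL2L14, C5AR2 and RDH10). The neighbours of each member were picked for likeness over these same pools, so sharing its high and low pools follows from that choice. Nearest to IL1B S1 were the serine dehydratase SDS (0.21), RASGEF1B (0.35), the chemokine CCL3 (0.36), GADD45B (0.39) and the mRNA decay factor ZFP36 (0.39), all of them highest in receptive day 7 pool 1. Nearest to IL1RN were the scavenger receptor OLR1 (0.36), SAMSN1 (0.37), the receptor chain CSF2RB (0.38), BCL2A1 (0.39) and complement C5 (0.47). The IL1RN neighbours shared the high value of that pool, and OLR1 was also above its mean in receptive day 7 pool 2 and non-receptive day 7 pools 1 and 3, as IL1RN was.

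**Figure D4:**
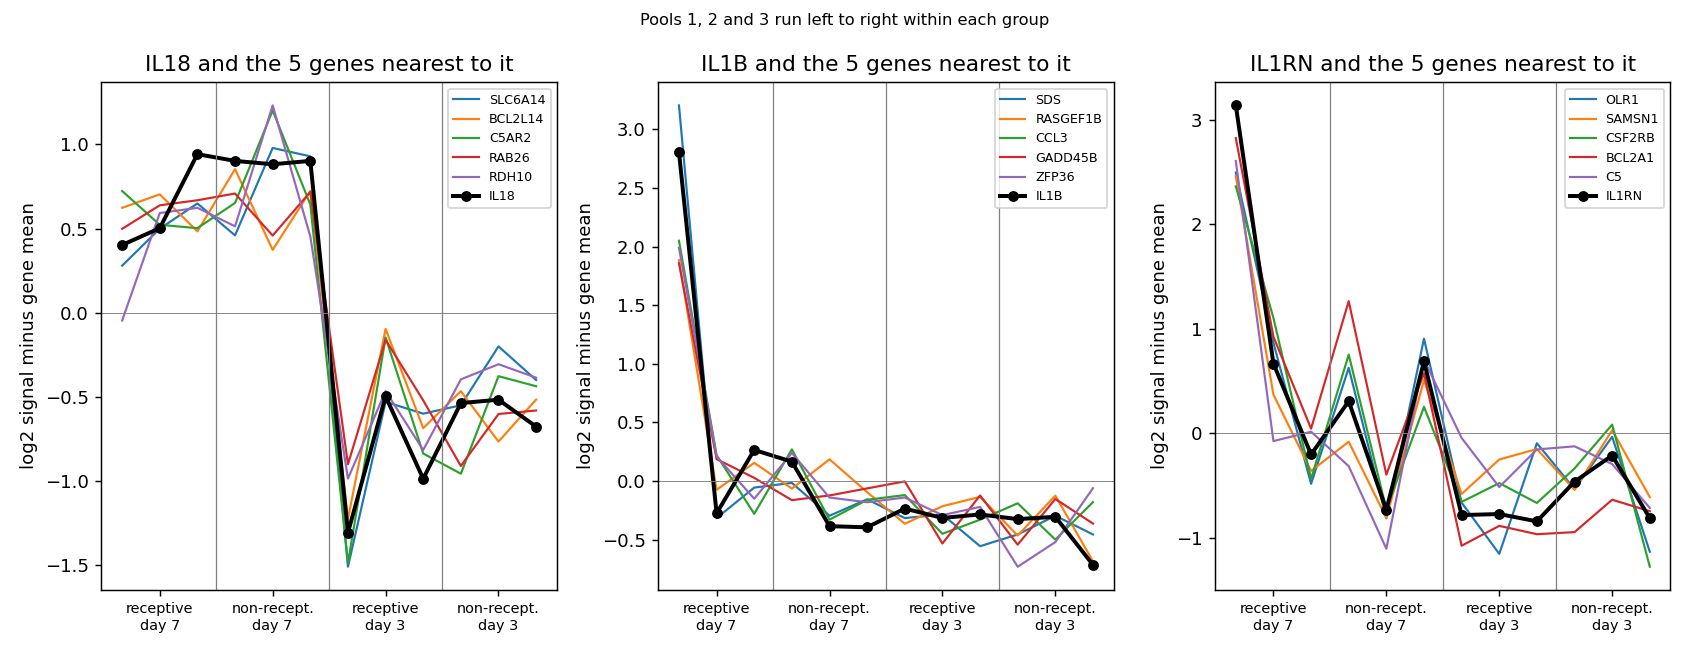
Log2 signal minus the gene's mean (vertical axes) in the 12 pools (horizontal axis, by group) for IL18, IL1B and IL1RN as black lines and for the 5 genes nearest to each as coloured lines. The lines join pools for reading only, and IL18 and its neighbours split by day while those of IL1B share a single high pool.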

How the data were processed

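The values deposited by the authors were log2 signals, 1 table with 24128 probe sets and 12 arrays, to 2 decimals and between 0 and 14.06. According to the submitters' processing notes the software included PLIER, GCOS 1.1.1 and Expression Console, with no role or order given, and how the arrays were scaled is not stated in the sources used here. Without 112 Affymetrix controls, 24016 probe sets entered the tests as deposited, unfiltered. A model of 4 group means over the 12 arrays was estimated in R 4.3.3 with limma 3.58.1 (empirical Bayes moderation). It gave 7 contrasts, each two-sided, with Benjamini-Hochberg adjustment over all tested probe sets and a threshold of 0.05. The model was also run on simulated data with independent normal noise and no outlying pool, which cannot show how it handles a pool that stands apart.

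Probe sets were named from the platform annotation, and none with several symbols was used. Every probe set of the 7 genes was described. Of the pathway and marker lists the counts were given and the members called in the averaged day contrast were named, with 1 probe set per gene, that of the highest mean signal, and other members are given with their values for context. For IL18, IL1B and IL1RN the 5 genes with the nearest profile were named. The members, lists and tests were chosen with earlier results of these data known. The number of arrays limits the precision. Alternatives changed the scaling, the low-value handling, the variance model and the arrays used. No sequence was printed, since none of these genes' sequences was among the sources used here.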

Additional observations from a re-analysis of the deposited data

Results flagged for a closer look

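The highest and the lowest of the 6 pools of each day were set against the rest for each probe set, 18 groups in all, by Dixon's ratio of the gap to the range at its 95% critical value, which chance exceeds in about 1 of 20 groups. The ratio was exceeded in 6 cases. In 5 of them the pool was receptive day 7 pool 1, at 11.34 and 9.42 for IL1B, 10.28 and 6.57 for IL1A and 11.50 for IL1RN, against next values of 6.62, 6.88, 5.88, 5.21 and 9.05. The ratio of IL1RN, 0.633, was barely over the critical value. The other case was IL1B S1 in non-receptive day 3 pool 3, which was the lowest of day 3 at 5.90, against 6.29 in the next pool.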

How the results depend on the processing

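There were 23 alternatives, of which 12 left out 1 pool. Of the values under them 1356 kept direction and side of the threshold, 8 gained a call, 4 lost one and 40 turned direction, none of which was called. For the IL-1 family the count of members called on receptivity and on the difference between the day changes was 0 throughout. The day count averaged over receptivity was 2 with an intensity trend (IL18 and IL1A), 4 with array weights (with IL1RN and CASP1 too) and 1 to 3 without 1 pool (2 without receptive day 7 pool 1 or pool 2, 3 without pool 3). In receptive endometrium it was 0 with only the arrays of the groups compared and 0 to 1 without 1 pool, and in non-receptive endometrium 0 to 1. Over all probe sets the day count in receptive endometrium was 471, but 1078 with a mean signal of at least 5 or with an intensity trend, 1275 with array weights, 778 with values below 3 raised, and 37 with only the arrays compared. In non-receptive endometrium it was 596, but 1208, 1075, 3141 and 37 with the filter, the trend, the weights and only the arrays compared, and averaged over receptivity it was 3412, but 5611 with array weights. The cause was not tested.

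The labels do not say whether pool numbers pair the pools, and they were not treated as pairs. Of 18 same-numbered pairs 3 had a correlation of deviations over 0.1 (range -0.18 to 0.14). Between receptive day 7 and receptive day 3 they were 0.136, 0.052 and 0.122, each the highest with its own number. With the replicate block the IL-1 family counts were the same, 1 for each day contrast and 0 for the others, and over all probe sets they were 3029, 155 in receptive and 314 in non-receptive endometrium. This block joins equal pool numbers across all 4 groups, so pairing of the days within receptive endometrium alone was not tested.

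Directions that turned were as follows. With array weights, the receptivity difference of CASP1 was -0.048 on day 7, 0.007 on day 3 and -0.02 averaged, that of IL1R2 on day 3 was -0.036, and the interaction of CASP1 was -0.055. With the actin gap as covariate, the receptivity difference of CASP1 was -0.02 on day 7 and -0.226 averaged, that of IL18 0.149 on day 3 and 0.054 averaged, those of IL1B S1 and IL1R2 on day 3 -0.166 and -0.187, and that of IL1RN averaged -0.009, while the interaction of IL18 was -0.19. Without 1 pool, the receptivity difference of CASP1 ran from -0.225 to 0.49 on day 7 and from -0.168 to 0.19 averaged, that of IL1R2 on day 3 from -0.018 to 0.158, and averaged those of IL1A S1 from -0.07 to 0.295, IL1B S2 from -0.148 to 1.162 and IL1RN from -0.079 to 0.756. The day change of IL1R1 ran from -0.005 to 0.3 in receptive and from -0.125 to 0.19 in non-receptive endometrium, where that of IL1A S1 ran from -0.07 to 0.175, IL1B S2 from -0.037 to 0.413 and IL1R2 from -0.122 to 0.578. The interaction ran from -0.115 to 0.29 for IL18, -0.478 to 2.137 for IL1A S2, -0.072 to 0.285 for IL1R1, -0.052 to 0.765 for IL1R2 and -0.115 to 0.6 for CASP1.

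The filter at a mean of 5 removed IL1R2 and IL1A S2, and the fit to the arrays compared could not be run for contrasts over all groups. The medians and list counts without receptive day 7 pool 1 were chosen after seeing the data. An arm of 2 pools borrowed its spread from the other groups.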

Other observations

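Genes other than the members were also highest in receptive day 7 pool 1, and they were chosen after their values were seen. With 1 probe set per gene, the widest gaps to the next pool were those of the leukocyte cytoskeletal protein PLEK (12.07 against 7.10), the chemokine CCL4 (12.19 against 7.74), the long pentraxin PTX3 (10.06 against 6.43) and the lymphocyte activation marker CD69 (10.02 against 6.41). Antimicrobial peptides of epithelium followed, with LAP at 9.32 against 5.97 and TAP at 12.89 against 9.71, and so did the acute phase protein HP at 10.67 against 7.74 and the nitric oxide synthase NOS2, which is also in the list of IL-1-induced genes, at 9.76 against 6.7.

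IL18 and the actin gap can be set side by side within the groups, also after seeing the values. In receptive pools 1 to 3 of day 7 IL18 was 9.10, 9.20 and 9.64 with gaps of 1.25, 0.96 and 0.82, and in receptive pools of day 3 it was 7.39, 8.20 and 7.71 with gaps of 3.11, 1.05 and 1.80. In non-receptive pools of day 7 it was 9.60, 9.58 and 9.60 with gaps of 0.45, 0.02 and 0.63, and on day 3 it was 8.16, 8.18 and 8.02 with gaps of 0.49, 0.48 and 0.93. The pool with the widest actin gap had the lowest IL18 in 3 of the 4 groups. In the remaining group, non-receptive day 7, IL18 spanned only 0.02. The part of RNA integrity in the IL18 values was not tested. By GAPDH the gap of receptive day 3 pool 1 was 0.74. The widest GAPDH gap, 1.04, was in receptive day 3 pool 2, which had the highest IL18 of its group.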
